A study of Mus musculus with 22 samples.

Results

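The 7 mouse sirtuins, Sirt1 to Sirt7, were read by symbol from the matrix of 23361 genes measured in hippocampal CA1, and all 7 were among the 16978 genes tested. The 22 libraries came from 22 female wild-type mice, F1 animals of a cross of Swiss Webster with DBA/C57BL6, that had been put as young adults either on ad libitum (AL) feeding or on a calorie restricted (CR) diet in which carbohydrate was cut. There were 5 AL and 5 CR mice in the younger-adult groups, at 5 months of age, and 6 AL and 6 CR mice in the older-adult groups, at 15 months. GEO's diet label calls the AL diet normal. The tissue was microdissected CA1, a hand dissection that can carry neighboring regions with it, and each library was 1 mouse. Levels are FPKM, fragments per kilobase of transcript scaled to the sequenced total, a measure on which genes can be compared with each other.

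Sirtuins are enzymes that consume NAD+ to take acetyl and other acyl groups off lysines, so that their activity is tied to the nutritional state of the cell. Sirt1, Sirt6 and Sirt7 are found mainly in the nucleus, Sirt2 mainly in the cytoplasm, and Sirt3, Sirt4 and Sirt5 in mitochondria. The family has long been discussed in connection with aging and with calorie restriction, and an mRNA level says nothing of the protein or of its activity. The comparisons below ask whether the mRNAs of the family differed with age or with diet in this tissue.

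The genes lie, in GRCm38 coordinates of the GENCODE M21 annotation, at chr10:63319005-63381704 (Sirt1, minus strand), chr7:28766735-28788661 (Sirt2, plus strand), chr7:140863666-140882309 (Sirt3, minus strand), chr5:115478010-115484725 (Sirt4, minus strand), chr13:43365496-43395203 (Sirt5, plus strand), chr10:81621785-81627797 (Sirt6, minus strand) and chr11:120618372-120625240 (Sirt7, minus strand). No source used here says that fragments were counted by strand, and 3 members share exon sequence with another protein-coding gene. Exons of Sirt3 overlap Ric8a, listed as Ric8 in the matrix, by 418 bases and Psmd13 by 342 bases of its 5973 exon bases, both on the opposite strand. Psmd13 stood at 52.2 FPKM and Ric8 at 23.6 FPKM, so the level of Sirt3 may hold some reads of these genes. The overlap was 42 bases for Sirt2 with Nfkbib and 124 bases for Sirt7 with Mafg.

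The 250 bases before the transcription start of Sirt1 and Sirt2 are shown because the levels of these 2 genes ran against each other over the libraries and because their upstream sequences differ in makeup. They are RefSeq promoter sequences of GRCm38.p6, written 5′ to 3′ on the strand of the gene, and cover chr10:63339036-63339285 (minus strand) and chr7:28766502-28766751 (plus strand). Capitals mark the E-box CACGTG. The RefSeq starts of both genes lie inside the GENCODE spans given above, which reach further upstream, much further for Sirt1 than for Sirt2.
Sirt1: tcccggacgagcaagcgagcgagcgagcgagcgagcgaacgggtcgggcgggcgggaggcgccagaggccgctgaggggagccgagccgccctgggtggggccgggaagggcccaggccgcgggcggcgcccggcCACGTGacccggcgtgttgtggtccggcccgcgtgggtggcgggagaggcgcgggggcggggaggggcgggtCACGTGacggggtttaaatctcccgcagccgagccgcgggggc
Sirt2: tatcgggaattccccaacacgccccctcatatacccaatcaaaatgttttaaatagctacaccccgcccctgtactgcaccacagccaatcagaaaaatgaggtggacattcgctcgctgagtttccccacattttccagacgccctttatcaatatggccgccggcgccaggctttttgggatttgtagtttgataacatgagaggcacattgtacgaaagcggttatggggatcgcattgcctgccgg
The sequence before Sirt1 was 79.2% G and C, at percentile 98.4 of the 32851 RefSeq promoters of the same length, whose median was 52.4%. It held 2 E-boxes, with their first letters 115 and 43 bases before the start, and 6 copies of the GC box GGGCGG on either strand. The sequence before Sirt2 was 50% G and C and held no E-box, 1 GC box and 2 CCAAT boxes. Among all promoters, 6.02% held CACGTG, which reads the same on both strands, 32.7% held GGGCGG or its complement and 33.8% held CCAAT or its complement. Of the 9 promoter entries of the 7 sirtuins (Sirt3 and Sirt6 have 2 each), the E-box was found in that of Sirt1 alone, the GC box in 6 and the CCAAT box in 3, and the cAMP response element TGACGTCA, present in 1.55% of all promoters, in none. These motifs were looked for after the sequences had been seen, and a match is a description of the letters only.

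Sirt2 was the most abundant sirtuin in CA1 and Sirt1 the least. Mean levels over the 22 libraries were 72.5 FPKM for Sirt2, 53.4 for Sirt3, 19.5 for Sirt7, 11.4 for Sirt4, 11.4 for Sirt6, 8.50 for Sirt5 and 5.83 for Sirt1. Sirt2 and Sirt3 together made up most of the family's mRNA, with mean shares of 39.6% and 29.2% of the summed sirtuin FPKM, against 3.23% for Sirt1. Among all tested genes, the mean of Sirt2 lay at percentile 91.9 and that of Sirt1 at percentile 41.5. The order held mouse by mouse: each gene was above the next in 22 of 22 libraries, with the exception of Sirt4, which was above Sirt6 in 13 of 22. The summed FPKM of the 7 genes was 188 ± 9.59 (SD, n = 5) in AL and 183 ± 9.26 (n = 5) in CR mice at 5 months, and 180 ± 10.4 (n = 6) in AL and 181 ± 18.9 (n = 6) in CR mice at 15 months.

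Sirt4 and Sirt6 changed places between the ages. Sirt4 was above Sirt6 in 1 of 5 AL and 1 of 5 CR libraries at 5 months, and in 5 of 6 AL and 6 of 6 CR libraries at 15 months. The ratio of Sirt4 to Sirt6 within a library, which no scaling of the library can move, was 0.938 ± 0.0877 (SD) and 0.915 ± 0.131 in AL and CR mice at 5 months, and 1.05 ± 0.0409 and 1.09 ± 0.0308 at 15 months. This pattern was seen in the data and was not tested.

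**Figure D1:**
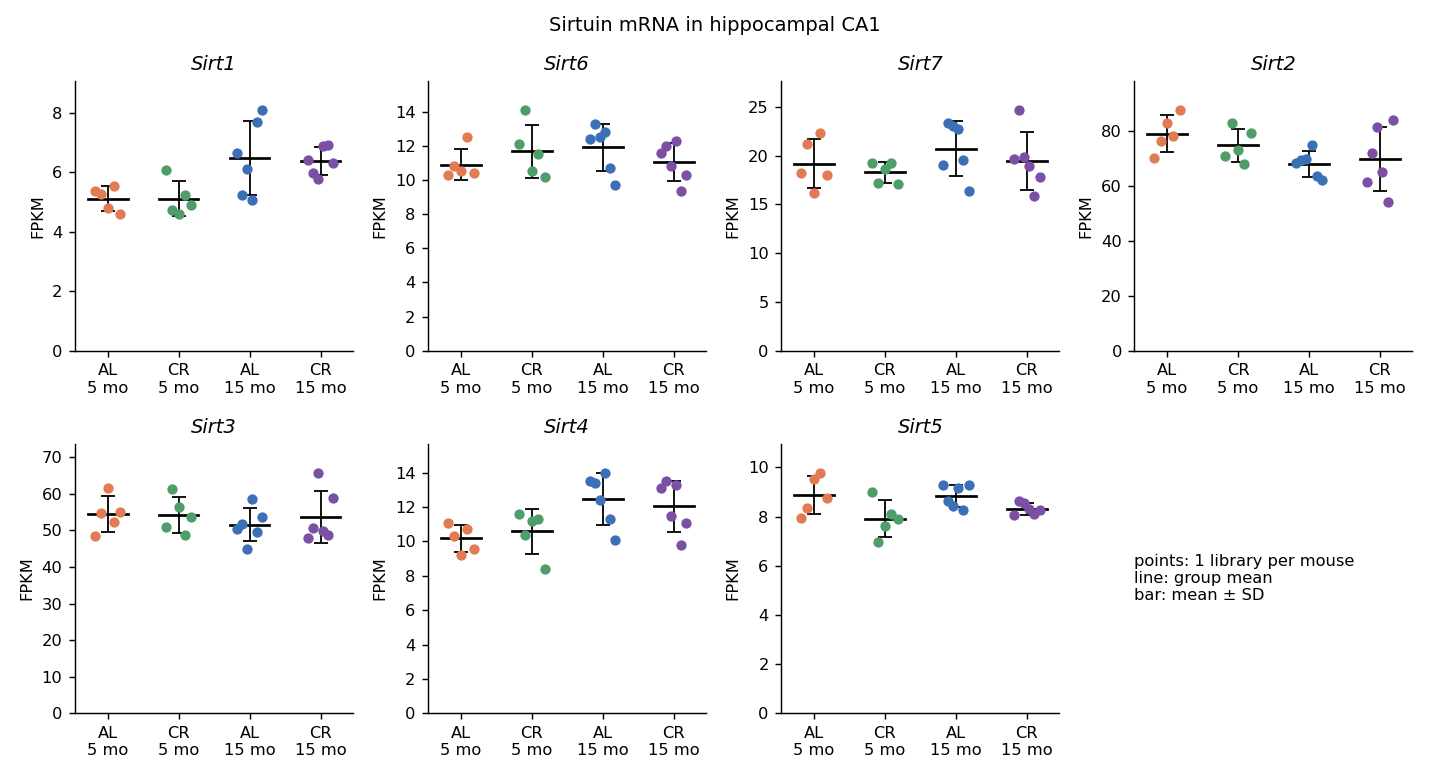
FPKM of the 7 sirtuins (y axis of each panel, linear and from 0) in the 4 groups (x axis), with 1 point per library, a line at the group mean and bars of 1 SD. The group means of Sirt1 and Sirt4 are higher at 15 months in both diets, with mean Sirt1 near 5.1 FPKM at 5 months and 6.4 to 6.5 FPKM at 15 months, and points of AL and CR mice of the same age overlap for every sirtuin.

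Age was associated with more Sirt1 mRNA. Sirt1, a nuclear deacetylase of histones and of transcription factors such as the FoxO proteins, was the only sirtuin called between AL mice at 15 and 5 months, at 1 of 7 members against 20.6% of all tested genes. In AL mice at 5 months it stood at 5.38, 5.27, 4.78, 5.55 and 4.58 FPKM, and at 15 months it ranged from 5.05 to 8.09 with a median of 6.38. In CR mice it stood at 6.07, 4.73, 4.58, 5.23 and 4.91 FPKM at 5 months, and at 15 months ranged from 5.78 to 6.91 with a median of 6.37. In both diets the older libraries reached above the younger ones but overlapped them: 4 of 6 older libraries were above the highest younger library of the same diet. The rest differed between the diets: 2 of 6 older AL libraries lay below the median of the younger AL libraries, against 0 of 6 in CR mice. The group means were 5.11 ± 0.413 (SD, n = 5) and 6.47 ± 1.25 (n = 6) in AL mice, and 5.10 ± 0.591 (n = 5) and 6.38 ± 0.460 (n = 6) in CR mice.

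On the log2(FPKM + 0.1) scale used for every fold change here, Sirt1 rose by 0.32 in AL mice (limma, SE 0.11, 95% interval 0.09 to 0.54, adjusted p = 0.0468), a 1.24-fold difference. The difference in CR mice was of the same size, 0.32 (SE 0.11, interval 0.09 to 0.55), with a limma adjusted p = 0.118. In that comparison 0 of 7 sirtuins were called by limma (1, Sirt1, had an unadjusted p under 0.05), against 3.36% of all genes (18.0% had an unadjusted p under 0.05). The unadjusted limma p-values were 0.00934 in AL and 0.00832 in CR mice. Exact two-sided permutation tests of the same means gave p = 0.0476 in AL and p = 0.0130 in CR mice, 2 of 35 such tests made on the family, none of them adjusted. The difference between the 2 age differences was 0.0057 (interval -0.32 to 0.33). Averaged over both diets, a contrast added after the data had been seen, Sirt1 was 0.32 higher at 15 months (SE 0.08, limma adjusted p = 0.00524), and this call was kept whichever single library was left out.

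The call in AL mice alone was close to the threshold. It was kept in 7 of 22 fits that each lacked 1 library, in which the log2 fold change ranged from 0.25 to 0.38 and the limma adjusted p from 0.0182 to 0.117. In a fit of the AL mice alone the limma adjusted p of Sirt1 was 0.0946. With 1 library left out, the call was lost without AL mice 0, 1, 2 or 4 or CR mice 1, 2, 3 or 4 at 5 months, and without AL mice 0, 2, 4 or 5 or CR mice 0, 1 or 5 at 15 months (numbers as in GEO's titles). Some marker scores of the dissected tissue also moved with Sirt1. The mean log2 level of 5 CA1 pyramidal neuron markers was 5.91 (range 5.27 to 6.43) in AL and 5.85 (5.64 to 6.22) in CR mice at 5 months, and 4.17 (3.36 to 5.12) and 4.82 (3.12 to 5.99) at 15 months. The CA1 markers did not move as one: between older and younger AL mice 3 of the 5 were called lower, whereas Wfs1 was 0.63 higher on the log2 scale without a call (56.5 ± 22.3 FPKM at 5 and 83.4 ± 15.2 FPKM at 15 months, limma adjusted p = 0.156) and was called higher in the average over both diets, at 0.75 (limma adjusted p = 0.0177). In the same comparison of AL mice, 5 of 10 neocortex and subiculum markers were called higher and 1 lower. Of all tested genes, 20.6% were called there in either direction. No marker of either list was at 0 in any library. The neocortex and subiculum score was 2.71 (2.59 to 3.15) and 2.44 (2.12 to 2.66) in AL and CR mice at 5 months, and 3.68 (3.14 to 3.94) and 3.18 (2.30 to 4.13) at 15 months. Over the 22 libraries, which share their groups and their dissections, the level of Sirt1 had a Pearson correlation of -0.75 with the CA1 score, and of -0.55 after the group means were subtracted. With the neocortex and subiculum score it was 0.49, and -0.02 after that subtraction. Scores of other cell types also ran against Sirt1. The correlation was -0.68 with ependyma and -0.61 with choroid plexus (-0.17 and -0.24 after subtraction), and -0.28 with astrocytes (-0.63 after subtraction). It was -0.46 with oligodendrocytes, -0.37 with microglia, -0.33 with CA3 pyramidal neurons and -0.32 with oligodendrocyte precursors (-0.20, -0.31, 0.03 and -0.43 after subtraction). With the difference between the neocortex and CA1 scores as a covariate, the log2 fold change of Sirt1 with age was 0.06 in AL mice and 0.11 over both diets (limma adjusted p = 0.904 and 0.709), and 0 of the genes tested were then called by limma with age in AL mice (2286 had an unadjusted p under 0.05). That score difference did not overlap between AL mice of 5 months (-3.84 to -2.12) and 15 months (-1.42 to 0.55). The covariate thus largely stands in for age in AL mice, where the SE of Sirt1 was 0.16 with it and 0.11 without. Such a fit cannot separate region from age there. In bulk tissue a change in the number of cells of a type and a change of mRNA per cell cannot be told apart.

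**Figure D2:**
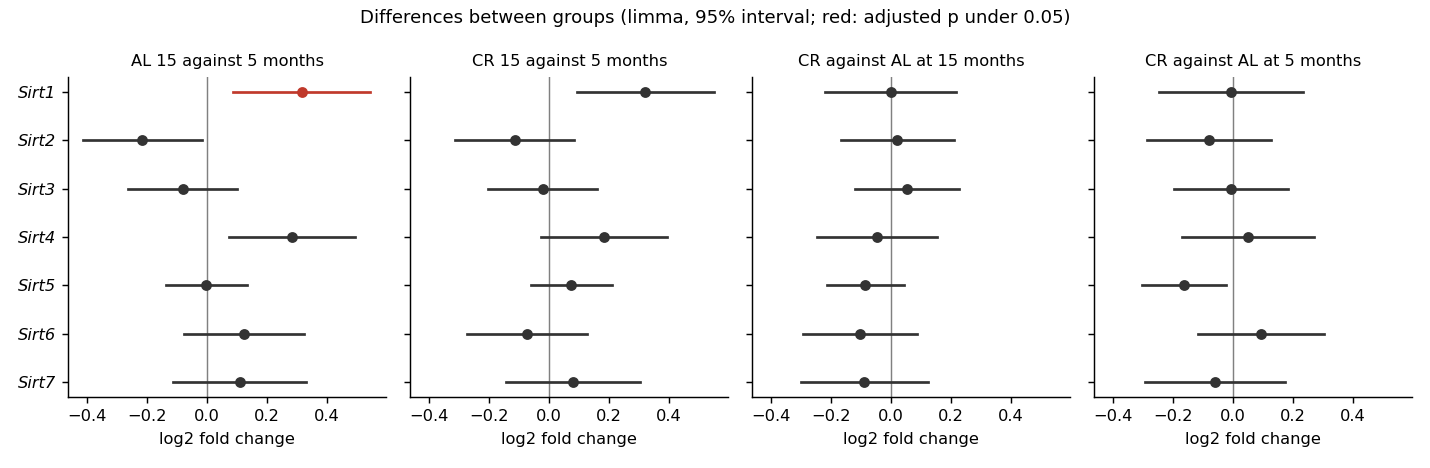
Log2 fold changes of the 7 sirtuins (x axis) in 4 comparisons (panels), with dots at the limma estimate on log2(FPKM + 0.1) and lines for its 95% interval, in red where the adjusted p over all tested genes was under 0.05. Sirt1 with age in AL mice, at 0.32, is the only red point, the same estimate was found with age in CR mice, and in the comparison of diets at 15 months every interval includes 0.

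The other nuclear members showed no call. Sirt6, a histone H3 deacetylase that acts in DNA repair, stood at 10.9 ± 0.942 and 11.7 ± 1.55 FPKM in AL and CR mice at 5 months (SD, n = 5 each) and at 11.9 ± 1.40 and 11.1 ± 1.14 at 15 months (n = 6 each). Its age difference was 0.12 in AL mice (interval -0.08 to 0.32) and -0.07 in CR mice (-0.28 to 0.13), and the difference between these, -0.20 (SE 0.14, limma adjusted p = 0.737), was the largest interaction in the family without passing the test. Sirt7, a nucleolar deacetylase tied to transcription by RNA polymerase I, had means between 18.3 and 20.7 FPKM in the 4 groups and age differences of 0.11 in AL mice (interval -0.11 to 0.33) and 0.08 in CR mice (-0.14 to 0.30). Values of the groups overlapped for both genes in every comparison.

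Sirt2 was lower on average at 15 months in both diets, without passing the test. It is a cytoplasmic deacetylase of tubulin that is abundant in oligodendrocytes and their myelin. Its level was 70.0, 76.3, 83.0, 78.2 and 87.6 FPKM in AL mice at 5 months, and ran from 62.1 to 75.0 with a median of 68.9 at 15 months. In CR mice it was 70.8, 82.7, 73.2, 68.0 and 79.2 FPKM at 5 months, and ran from 54.2 to 83.9 with a median of 68.5 at 15 months. All 6 older AL libraries lay below the median of the younger AL libraries, whereas the older CR libraries held the lowest value of all 22 and also values up to 83.9 FPKM.

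The log2 fold change of Sirt2 with age was -0.22 in AL mice (SE 0.10, interval -0.41 to -0.02, limma adjusted p = 0.112, exact permutation p = 0.00866) and -0.11 in CR mice (interval -0.31 to 0.08, limma adjusted p = 0.557, exact permutation p = 0.364). The difference between the diets in this respect was 0.10 (interval -0.18 to 0.38). Averaged over both diets it was -0.17 (SE 0.07, limma adjusted p = 0.0734). That average passed the threshold without CR mouse 2 or without CR mouse 5 of the 15-month group, at -0.19 and a limma adjusted p as low as 0.032, and also with the libraries shifted to a common median, at -0.19 (limma adjusted p = 0.0455). In the fit of the AL mice alone Sirt2 was called, at -0.22 with a limma adjusted p = 0.0373.

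Oligodendrocyte markers moved with Sirt2 over the libraries. The mean log2 level of 10 markers, among them Mbp, was 6.27 (range 5.96 to 6.65) in AL and 5.72 (5.05 to 6.49) in CR mice at 5 months, and 5.33 (4.68 to 5.96) and 5.29 (4.15 to 6.78) at 15 months. None of the 10 markers was at 0 in any library, and 2 of the 10 were called lower with age in AL mice, near the 20.6% of all tested genes called there. The correlation of Sirt2 with this score over the 22 libraries was 0.79, and 0.72 after the group means were subtracted. It was 0.75 and 0.68 with the CA1 score. With the oligodendrocyte score as a covariate the age difference of Sirt2 was -0.04 in AL mice and -0.04 over both diets (limma adjusted p = 0.75 and 0.667). With the region score, neocortex minus CA1, as the covariate it was 0.02 in AL mice, where that score did not overlap between the ages. The oligodendrocyte score barely overlapped there (lowest 5.955 at 5 months, highest 5.957 at 15 months), so it too is tied to age in AL mice. Whether oligodendrocyte content accounts for the age difference of Sirt2 was not tested.

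**Figure D3:**
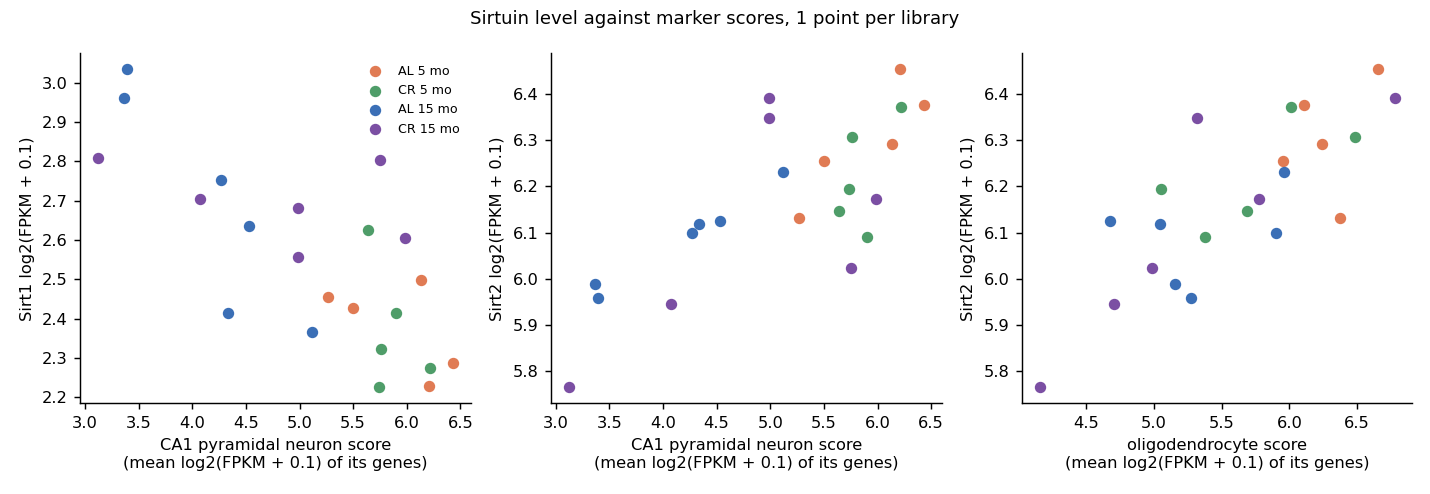
Level of Sirt1 or Sirt2, as log2(FPKM + 0.1) on the y axis, against the CA1 pyramidal neuron score or the oligodendrocyte score on the x axis, both means of log2(FPKM + 0.1) over a marker list, with 1 point per library colored by group. Sirt1 runs down with the CA1 score (correlation -0.75), and Sirt2 runs up with the CA1 score (0.75) and the oligodendrocyte score (0.79); the lowest CA1 and oligodendrocyte scores belong to 1 CR mouse at 15 months, which also had the lowest Sirt2.

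Of the mitochondrial members, Sirt4 was called higher at 15 months in the average over both diets, the contrast added after the data had been seen. It is an enzyme known for restraining glutamate dehydrogenase and for removing lipoyl groups, and its level was 11.1, 10.3, 9.20, 10.7 and 9.56 FPKM in AL mice and 11.6, 10.4, 11.2, 11.3 and 8.42 FPKM in CR mice at 5 months. At 15 months it ran from 10.1 to 14.0 with a median of 12.9 in AL mice, and from 9.77 to 13.5 with a median of 12.3 in CR mice. In AL mice, 5 of 6 older libraries lay above every younger one, and in CR mice 3 of 6. The log2 fold change was 0.28 in AL mice (SE 0.10, interval 0.07 to 0.49, limma adjusted p = 0.0523, exact permutation p = 0.0260) and 0.18 in CR mice (interval -0.03 to 0.39, limma adjusted p = 0.351, exact permutation p = 0.156). The difference between the 2 was -0.10 (interval -0.40 to 0.20).

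Averaged over both diets, Sirt4 rose by 0.23 (SE 0.07, interval 0.08 to 0.38, limma adjusted p = 0.0205), which made 2 of 7 sirtuins called in that contrast against 27.0% of all tested genes. The call was kept in all 22 fits with 1 library left out. It was not kept with the region score as a covariate, where the estimate was larger, 0.38, with a limma adjusted p = 0.119, nor with the oligodendrocyte score (0.23, adjusted p = 0.059). Marker scores moved with Sirt4 too, with correlations of -0.63 for ependyma and -0.60 for choroid plexus (-0.28 and -0.40 after the group means were subtracted). For endothelium and for neocortex and subiculum they were 0.55 and 0.51 (0.54 and 0.14 after subtraction). The bearing of these scores on the age difference was not tested. Between older and younger AL mice, Sirt4 passed the threshold in the fit of the AL mice alone (limma adjusted p = 0.0409) and when AL mouse 0 or CR mouse 4 of the 5-month groups, or AL mouse 5 or CR mouse 4 of the 15-month groups, was left out, with limma adjusted p-values down to 0.0229.

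Sirt3, the main deacetylase of mitochondrial proteins, showed age differences of -0.08 in AL mice (interval -0.26 to 0.10) and -0.02 in CR mice (-0.20 to 0.16), around means between 51.5 and 54.5 FPKM. Sirt5, which removes succinyl, malonyl and glutaryl groups, differed with age by -0.0024 in AL mice (interval -0.14 to 0.13) and by 0.07 in CR mice (-0.06 to 0.21). It was the steadiest of the family, with a highest library only 1.40 times the lowest, against 1.77 times for Sirt1.

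Diet was not associated with a called difference in any sirtuin. At 15 months 0 of 7 were called by limma, against 0.742% of all tested genes, and none of the 7 had an unadjusted p under 0.05, against 17.1% of all. At 5 months 0 of 7 were called by limma and 1, Sirt5, had an unadjusted p under 0.05, against 0% of all tested genes called (789 had an unadjusted p under 0.05, and limma without the intensity trend called 1). The 95% intervals show how large a difference these data leave room for: at 15 months their outermost bounds over the 7 genes were -0.30 and 0.23, and at 5 months -0.30 and 0.30. For Sirt1 the difference of CR from AL mice was -0.0007 (interval -0.22 to 0.22) at 15 months and -0.0064 (-0.25 to 0.23) at 5 months. The age by diet interaction gave 0 of 7 calls and 0% of all genes (1301 genes with an unadjusted p under 0.05), with limma adjusted p-values of 0.737 and above for the sirtuins.

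Sirt5 was the member with the lowest p in the comparisons of diets. It stood at 7.94, 8.36, 9.55, 9.79 and 8.75 FPKM in AL mice and at 9.00, 6.98, 7.63, 8.09 and 7.91 FPKM in CR mice at 5 months. At 15 months it ran from 8.26 to 9.28 with a median of 8.91 in AL mice, and from 8.05 to 8.62 with a median of 8.30 in CR mice. All 6 CR libraries at 15 months were below the AL median, and the groups overlapped at both ages. The log2 fold change of CR against AL was -0.16 at 5 months (SE 0.07, interval -0.30 to -0.02, limma unadjusted p = 0.0255, adjusted p = 1, exact permutation p = 0.0794) and -0.09 at 15 months (interval -0.21 to 0.04, limma adjusted p = 0.489, exact permutation p = 0.0368).

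Older CR mice were also set against younger AL mice. By limma 0 of 7 sirtuins were called (2, Sirt1 and Sirt4, had an unadjusted p under 0.05), against 3.12% of all tested genes (19.3% had an unadjusted p under 0.05). Sirt1 was 0.31 higher (interval 0.09 to 0.54, limma adjusted p = 0.120), and its values did not overlap: the lowest older CR library, at 5.78 FPKM, was above the highest younger AL library, at 5.55 FPKM, and the exact permutation test gave p = 0.00433, where 0.00216 is the smallest it can give. This comparison has the AL libraries of 5 months in common with the age comparison in AL mice. How many of all genes were without overlap in it was not counted. Sirt2 differed by -0.19 (adjusted p = 0.271) and Sirt4 by 0.23 (adjusted p = 0.204), both by limma.

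The sirtuins varied together in 2 sets. Across the 22 libraries, Sirt4, Sirt6 and Sirt7 had pairwise Pearson correlations of log2(FPKM + 0.1) of 0.62 (Sirt4 with Sirt6), 0.69 (Sirt4 with Sirt7) and 0.61 (Sirt6 with Sirt7), and of 0.72, 0.71 and 0.64 after subtracting the group means. Sirt2 and Sirt3 correlated at 0.70, and at 0.71 within groups. Sirt1 ran against Sirt2, at -0.70 over all libraries and -0.59 within groups. Sirt5 stood apart, with correlations between 0.02 and 0.24 to the other members. The libraries share their tissue composition and FPKM scaling, and no p is attached to these values. The ratio of Sirt1 to Sirt2, free of library scaling, was 0.0654 ± 0.0101 (SD) and 0.0689 ± 0.0120 in AL and CR mice at 5 months, and 0.0965 ± 0.0251 and 0.0945 ± 0.0217 at 15 months.

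**Figure D4:**
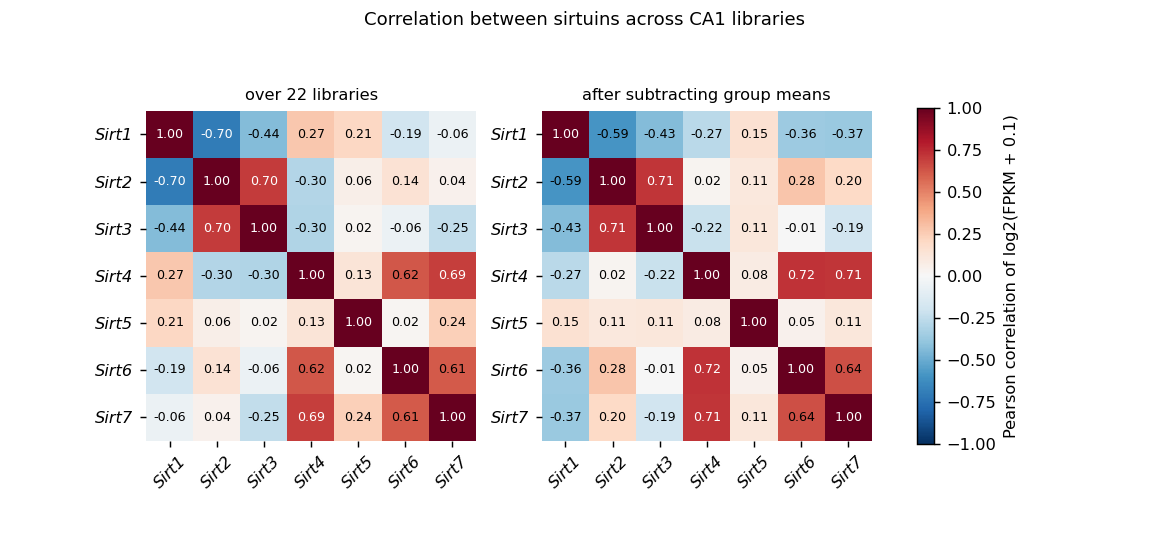
Pearson correlation of log2(FPKM + 0.1) between each pair of sirtuins, with the color scale from -1 to 1, over all 22 libraries (left) and after subtraction of the group means (right). A block of positive values joins Sirt4, Sirt6 and Sirt7 (0.61 to 0.72), another joins Sirt2 and Sirt3 (0.70 and 0.71), and Sirt1 is negative with Sirt2 (-0.70 and -0.59).

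The genes most like each sirtuin were found among 13838 other genes with a mean of at least 1 FPKM, by their correlation over the 22 libraries. Genes like Sirt3 in this way included Ndufv1 (0.81), which encodes a core subunit of respiratory complex I, and Rangrf (0.80). Within groups these values were 0.82 and 0.81. Sirt1 was most like Glcci1 (0.90), Mtf2 (0.89), a Polycomb protein, and Rasa2 (0.89), at 0.84, 0.90 and 0.79 within groups. For Sirt2 the closest were Carhsp1 (0.88), Urm1 (0.88) and Coro1b (0.86), at 0.87, 0.86 and 0.80 within groups. Sirt4 was followed most closely by Zgpat (0.90), Shkbp1 (0.88) and Gga3 (0.87), at 0.87, 0.87 and 0.82 within groups. Sirt7 was followed by Trmt1 (0.90), a tRNA methyltransferase, Sdccag3 (0.88) and Rps6kb2 (0.88), at 0.91, 0.87 and 0.88 within groups. For Sirt6 the closest were Fbrsl1 (0.83), Rai1 (0.82) and Ercc2 (0.81), a helicase of transcription and nucleotide excision repair. Within groups these stood at 0.90, 0.82 and 0.79. Sirt5 had no close companion. Its highest correlations were with Ppifos (0.69), 1110020A21Rik (0.68) and Qtrtd1 (0.68), at 0.55, 0.71 and 0.64 within groups.

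Around the family, 56 genes of NAD+ synthesis and use, of Sirt1 control, and of sirtuin substrates and RNA polymerase I were examined, and each of them was tested. Between older and younger AL mice, limma called 11 of the 56, 7 higher and 4 lower, which is 19.6% against the 20.6% of all genes. Of 9 NAD+ synthesis genes, 2 were called higher and 1 lower, and their median log2 fold change was -0.13 against -0.0018 for all tested genes. Nmnat2, the neuronal enzyme that joins nicotinamide mononucleotide to adenylate, rose from 35.3 ± 3.94 to 47.3 ± 3.48 FPKM (SD), a log2 fold change of 0.42 (SE 0.08, limma adjusted p = 0.00128), and the 2 groups did not overlap (highest younger 41.3, lowest older 42.3 FPKM). Nadsyn1, which makes NAD+ from its acid form, rose by 0.26 (limma adjusted p = 0.0394), a call kept in 5 of 11 alternatives and lost without AL mouse 0, 1 or 2 at 5 months or AL mouse 0, 1, 2 or 3 at 15 months. Nampt, the rate-limiting enzyme of NAD+ salvage, decreased by 0.27 on the log2 scale (limma adjusted p = 0.0435), from 18.5 ± 1.60 to 15.3 ± 1.14 FPKM, a call kept in 9 of 22 fits with 1 library left out. It was lost without AL mice 0, 1, 2 or 4 or CR mice 0, 1, 2 or 3 at 5 months, or AL mice 0, 1, 2, 3 or 4 at 15 months, whereas that of Nmnat2 was kept in all 22.

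Of 10 genes of NAD+ use and nicotinamide clearance, 2 were called with age in AL mice, both lower, with a list median of 0.02. This count, 2 of 10, lies near the 20.6% of all genes called there, and the counts of the shorter lists that follow stand against the same share. Parp1, the main poly(ADP-ribose) polymerase and a large consumer of NAD+, dropped from 39.7 ± 5.03 to 24.1 ± 2.27 FPKM (log2 fold change -0.71, SE 0.12, limma adjusted p = 0.000818). Cd38, an NAD+ glycohydrolase, dropped from 4.36 ± 0.531 to 1.48 ± 0.426 FPKM (log2 fold change -1.54, SE 0.29, limma adjusted p = 0.00134). Younger and older AL libraries did not overlap for either gene, and both calls were kept in 22 of 22 fits without 1 library. How many of all genes were without overlap between these groups was not counted, here or for Nmnat2. In CR mice neither was called: the age difference of Parp1 was -0.33 (limma adjusted p = 0.161) and that of Cd38 was -0.72 (adjusted p = 0.184), and the test of a difference between the diets in this respect gave adjusted p-values of 0.639 and 0.654. Nmrk1, a nicotinamide riboside kinase, was called lower in the average over both diets, at -0.77 (SE 0.18, limma adjusted p = 0.00363).

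**Figure D5:**
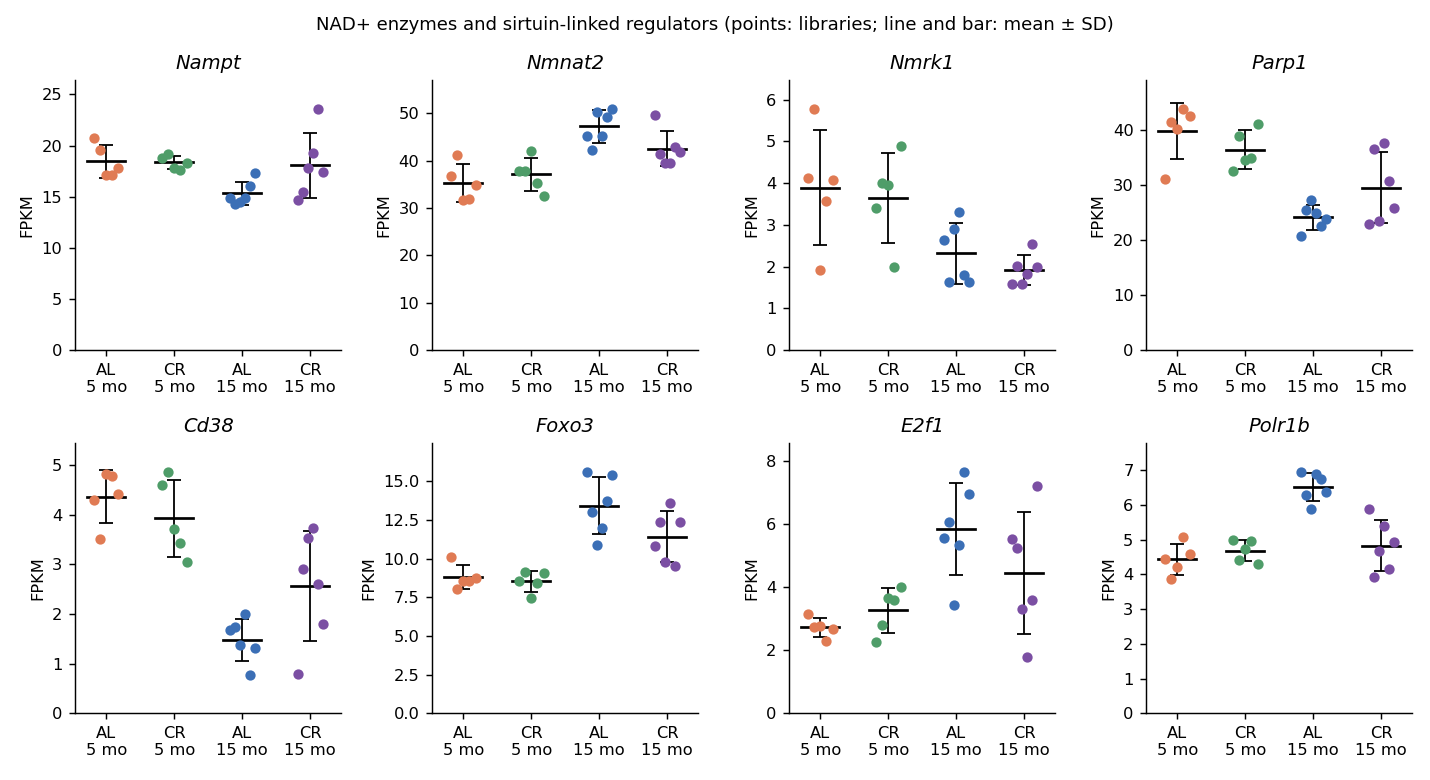
FPKM (y axis, linear and from 0) of 8 genes of the lists in the 4 groups (x axis), with 1 point per library, a line at the group mean and bars of 1 SD, the genes being picked after their values had been seen. Parp1 and Cd38 are lower and Nmnat2, Foxo3 and E2f1 higher in older than in younger AL mice, and Polr1b is high in older AL mice, at 6.51 FPKM, and near 4.4 to 4.8 FPKM in the other groups.

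Among 7 regulators of Sirt1, 1 was called with age in AL mice: E2f1, a transcription factor known to activate the Sirt1 gene, rose from 2.73 ± 0.306 to 5.84 ± 1.46 FPKM (log2 fold change 1.04, limma adjusted p = 0.00903). Of 11 nuclear and cytoplasmic substrates, Foxo3 rose by 0.60 (adjusted p = 0.000749) and Rarb by 0.61 (adjusted p = 0.00534), whereas Foxo4 decreased by 0.36 (adjusted p = 0.0282), all by limma. With 1 library left out, the calls of E2f1, Foxo3 and Rarb were kept in 22 of 22 fits and that of Foxo4 in 18, lost without AL mouse 2, 3 or 4 at 5 months or AL mouse 2 at 15 months. Foxo3 was also called higher with age in CR mice, at 0.41 (limma adjusted p = 0.0288), the only one of the 56 genes called there, against 3.36% of all genes, and kept in 17 of 22 fits with 1 library left out. It was lost without CR mouse 0, 2 or 3 at 5 months or CR mouse 1 or 5 at 15 months, and in a fit of the CR mice alone. None of the age calls named here from the lists was kept with the region score as a covariate. In AL mice 0 of all tested genes were called in that fit, so the loss there was not particular to these genes. Over the 11 alternatives in AL mice the estimate of Foxo3 stayed between 0.55 and 0.73. Those of E2f1 and Rarb went down to 0.17 and 0.097, and that of Foxo4 shrank to -0.056. Among 14 mitochondrial substrates, 1 was called in AL mice, Cps1, at 0.42 (limma adjusted p = 0.0355) and from means of 0.0844 to 0.147 FPKM, around the 0.1 FPKM that is added to every value, and its call was kept in 4 of 10 alternatives and in 14 of 22 fits with 1 library left out (lost without AL mice 0, 1, 3 or 4 at 5 months or AL mice 0, 1, 3 or 5 at 15 months).

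Of 5 genes of RNA polymerase I transcription, the process to which Sirt7 is tied, 1 was called. Polr1b, the second-largest subunit of the polymerase, rose with age in AL mice by 0.55 (SE 0.09, limma adjusted p = 0.000757) and was 0.44 lower on the log2 scale in CR than in AL mice at 15 months (SE 0.09, limma adjusted p = 0.0342), the only one of the 56 genes called between diets at that age, against 0.742% of all genes. That diet call was kept in 8 of 11 alternatives: it was lost after quantile normalization (limma adjusted p = 0.0504), with the region score (0.209) and in a fit of the 2 groups alone (0.18), where 0 genes of the whole table were called by limma (2003 had an unadjusted p under 0.05). It was also lost without AL mice 0, 1, 3, 4 or 5 or CR mice 1, 2, 3 or 4 of the 15-month groups, at log2 differences from -0.50 to -0.38 over all 22 such fits and limma adjusted p-values up to 0.0745. Its mean was 4.44 ± 0.452 FPKM in AL and 4.68 ± 0.304 in CR mice at 5 months, and 6.51 ± 0.411 in AL and 4.82 ± 0.744 in CR mice at 15 months. By limma 0 of the 56 genes were called between diets at 5 months, between older CR and younger AL mice, or in the interaction (1, 7 and 4 of them had an unadjusted p under 0.05). Among all tested genes, 4.65%, 19.3% and 7.66% had an unadjusted p under 0.05 in these 3 comparisons. In the average over both diets 15 of the 56 were called, 8 higher and 7 lower, which is 26.8% against 27.0% of all genes.

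Median FPKM of the libraries ran from 2.51 to 3.10, 18281 to 19175 genes were above 0, and no 2 libraries were identical. The depth behind each value is unknown, since the matrix gives no counts, so precision rests on the spread between mice. Of 14 cell type marker lists, ependymal genes moved most with age in AL mice, with 4 of 4 called lower, along with 3 of 8 choroid plexus genes. Of all tested genes, 20.6% were called there in either direction.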

How the data were processed

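CA1 mRNA was measured in 22 libraries, 1 per mouse. The authors aligned paired reads to mm10 with TopHat, removed duplicates with Picard and deposited FPKM estimated by Cufflinks with corrections for fragment bias and multiply mapped reads; versions and annotation release are not given in the sources used here. FPKM hold no counts, so no count model was used. Genes with a mean of at least 0.1 FPKM (16978) were fitted as log2(FPKM + 0.1) with limma 3.58.1 in R 4.3.3 (4 groups in 1 model, eBayes with trend, Benjamini-Hochberg over all genes, threshold 0.05). The study's own calls came from Cuffdiff on reads. Single sirtuins were also compared by exact permutation of group means (Python 3.11.15, scipy 1.17.1). Members and gene lists were chosen with earlier results of these data known. Genes named from the pathway lists are drawn from those called in a contrast, and Mbp and Wfs1 are named from the marker lists; the 3 most alike genes are named for each sirtuin, except 1 gene that is not reported here. Alternatives were other pseudocounts (1, 0.01), filters, scalings, variance models, covariates and single libraries left out, and the fit was tested on simulated data. The authors' NanoString data were not used here.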

Additional observations from a re-analysis of the deposited data

Results flagged for a closer look

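Sirt6 in AL mice at 5 months held 1 library far from the rest: mouse 3 stood at 12.5 FPKM, against 10.3 to 10.8 FPKM in the other 4 libraries of the group, a gap of 0.78 of the whole range, where 0.71 is the limit for 5 values. The 7 sirtuins in 4 groups gave 28 such checks, 1 of them past the limit, and chance alone flags about 1 in 20. Without this mouse the age difference of Sirt6 in AL mice stayed without a call, as it did in every fit that left out 1 library (log2 fold change 0.09 to 0.18, lowest limma adjusted p = 0.182).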

How the results depend on the processing

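No sirtuin was called between diets at either age, with age in CR mice, or in the interaction under any alternative, and Sirt1 and Sirt4 kept a positive sign with age in both diets throughout. Of 49 differences (7 genes in 7 contrasts), 27 kept their sign under every alternative and in every fit with 1 library left out, and 22 changed sign at least once, none of them called as reported. The depth behind the FPKM values is unknown, groups held 5 or 6 mice, and the date or run of a library is not given, so batches could not be examined.

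The number of sirtuins called with age in AL mice, 1 as reported, was 0 with all genes above 0, with libraries shifted to a common median, with quantile normalization, and with the region or the oligodendrocyte score as a covariate, and 2 (Sirt2 and Sirt4) in a separate fit of the AL mice. With 1 library left out it was 0 to 2. For Sirt1 the limma adjusted p was 0.0549 with all genes above 0, 0.0745 at a common median, 0.15 after quantile normalization, 0.0946 in the separate fit and 0.164 with the oligodendrocyte score. The average over both diets, 2 called as reported, gave 0 with the region score, 1 (Sirt1) with the oligodendrocyte score and 3 at a common median, where Sirt2 was added. The region score, which did not overlap between the ages in AL mice, took the number of all genes called with age in these mice from 3502 to 0. The cause of these changes was not tested.

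The replicate numbers of the labels do not pair mice: over 31 same-numbered pairs the deviations from the group means correlated at -0.139 to 0.163, above 0.1 in 2, and 4 of 22 libraries correlated best with their own number. With the replicate number as a block, Sirt1 with age in AL mice was 0.28 (limma adjusted p = 0.0687) and Sirt4 was 0.32 (adjusted p = 0.00274), and Sirt4 was the 1 sirtuin called between older CR and younger AL mice, at 0.27 (adjusted p = 0.0236). The number of all genes called between diets at 15 months, 126 as reported, was 323 with the block, 0 in a separate fit of the 2 groups, 5 with the region score, and with 1 library left out from 15 (without AL mouse 0 or 4 or CR mouse 3 of that age) to 732 (without CR mouse 0). At a common median the calls with age in AL mice were 1441 higher and 2286 lower, against 1809 and 1693 as reported.

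The log2 differences that changed sign were small in part, but that of Sirt2 with age was -0.22 in AL mice and -0.17 over both diets as reported. With the region score, CR against AL was 0.11 at 15 months and 0.01 at 5 months for Sirt1 and -0.08 at 15 months for Sirt2; Sirt2 with age was 0.02 in AL mice, 0.04 in CR mice and 0.03 over both diets; Sirt3 was 0.03 with age in CR mice, 0.01 in older CR against younger AL mice and 0.01 over both diets; Sirt5 was 0.07 with age in AL mice, and Sirt6 0.12 with age in CR mice. With the oligodendrocyte score, Sirt3 was 0.01 with age in AL mice, 0.02 in CR mice and 0.02 over both diets, 0.05 between diets at 5 months and 0.07 in older CR against younger AL mice; Sirt2 was 0.02 between diets at 5 months and Sirt5 0.02 with age in AL mice. After quantile normalization the diet difference at 15 months was 0.05 for Sirt1 and -0.02 for Sirt2, and Sirt3 was 0.01 with age in CR mice and 0.0024 in older CR against younger AL mice. At a common median, Sirt1 was 0.03 between diets at 15 months, Sirt6 -0.0013 in older CR against younger AL mice and -0.0022 with age over both diets, and Sirt7 -0.0008 in older CR against younger AL mice and 0.01 in the interaction.

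With single libraries left out, these ranges spanned 0: Sirt1 between diets at 15 months (-0.07 to 0.07), at 5 months (-0.07 to 0.03) and in the interaction (-0.06 to 0.07); Sirt2 between diets at 15 months (-0.04 to 0.09); Sirt3 with age in CR mice (-0.08 to 0.02), in older CR against younger AL mice (-0.09 to 0.02), between diets at 15 months (-0.0085 to 0.09) and at 5 months (-0.05 to 0.04) and in the interaction (-0.0012 to 0.11); Sirt4 between diets at 15 months (-0.11 to 0.01); Sirt5 with age in AL mice (-0.04 to 0.03); Sirt6 in older CR against younger AL mice (-0.01 to 0.07); and Sirt7 in that comparison (-0.05 to 0.08) and in the interaction (-0.1 to 0.03).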
